A study of Drosophila melanogaster with 4 samples.

Results

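The circular RNAs (circRNAs) described here come from 4 host genes of Drosophila melanogaster, namely kis, CG42345 (current symbol stw, straw, also called laccase 2), CG34126 and Cip4. The genes were chosen by the authors' read counts over all samples: each hosts a circRNA with at least 3 reads whose matching exons are coding but lack the annotated start codon. These genes account for 13 of the 2563 listed circRNAs, 6 of kis, 3 of stw, 2 of CG34126 and 2 of Cip4, and all 13 are given below. Since read counts picked the genes, those counts are a description and carry no test.

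The study applied ribosome footprinting, in which fragments shielded from digestion by ribosomes are sequenced, to whole fly heads. It had 4 libraries, 2 from a buffer low in detergent and 2 from one high in it, and the labels used here state no genotype, strain, age or other treatment of the flies. The table's library columns are named head 1 to head 4. Heads 1 and 2 were homogenized by an earlier published procedure, and heads 3 and 4 came from 200 frozen heads per sample in a 500 µl lysis buffer containing 0.1% Triton X-100 and cycloheximide. The labels do not tie a head number to a detergent, so detergent was not compared. The 4 columns held 4, 4, 92 and 130 circRNA reads, and heads 3 and 4 together gave 96.5% of all 230 reads. Homogenization method and read total change together between heads 1 and 2 and heads 3 and 4. The file headers differ along the same split, as only those of heads 3 and 4 name unique reads and run 4. The effects of these differences cannot be told apart. These totals count listed circRNA reads only, and the depth of whole libraries is unknown. The table lists no linear mRNA, so the head tissue could not be checked against marker genes. Apart from these reads, it does not give how abundant each circRNA was in the heads. The reads are taken to span back-splice junctions, which the table does not say.

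A circRNA forms when the splice donor at the end of an exon is joined back to the acceptor at the start of the same or an upstream exon. Such a ring has no cap and no poly(A) tail, the features that normally recruit ribosomes. A ring made only of exons that lie after the start codon also lacks the codon at which translation of the host mRNA begins. kis (kismet) encodes a chromodomain helicase of the trithorax group that acts on chromatin during transcription. stw encodes a multicopper oxidase that oxidizes catechols to harden and darken the cuticle. Cip4 encodes an F-BAR protein that binds Cdc42 and curves membranes during endocytosis and actin assembly. No role is given here for CG34126.

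Of the 13 circRNAs, 4 had reads, 1 per host gene, and the other 9 had 0. The 4 held 24 reads (95% exact Poisson interval 15.4 to 35.7), which is 10.4% of all reads (exact binomial interval 6.80% to 15.1%). Of all listed circRNAs 4.76% of circRNAs had at least 1 read and 0.234% had 3 or more. Among the 1145 circRNAs in coding exons without a start codon, 4.45% had at least 1 read. Because the rule used these counts, nothing is read from the members' share against this background. Taking 3 reads as the limit for a count of 0, here and for single libraries, a circRNA with 0 reads could still hold up to 1.30% of all reads (3 of 230). Without head 4 the 4 circRNAs held 6 reads, or 6% of the reads left. Intervals and limits cover counting error only. Whether repeat reads of the same molecule were removed is not stated, although the headers of heads 3 and 4 name unique reads.

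The kis circRNA had most reads of the 4. It lies on chromosome 2L from 227372 to 231034 (dm3, minus strand) and had 0 reads in head 1, 0 in head 2, 2 in head 3 and 9 in head 4. Its 11 reads (5.49 to 19.7) were thus seen in the libraries with many reads, more of them in head 4 than in head 3. They made up 4.78% of all reads (2.41% to 8.40%), and 2% without head 4. In the annotation its span of 3663 bp runs from exon 7 to exon 10, 11 or 12, depending on the transcript. These exons encode a central stretch of a very large protein. In transcript kis-RA they cover residues 2786 to 3086 of 5322, or 5.65% of the protein.

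The 5 kis transcripts that hold this block differ in what a ring cut from it would contain. kis-RE gives 4 exons and 692 bases, kis-RA and kis-RF give 5 exons and 902 bases, and kis-RD gives 6 exons and 950 bases. kis-RC has a single exon of 910 bases in place of the last exons and gives 1487 bases. Reads at a back-splice do not tell these forms apart.

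Of the other 5 kis circRNAs, 3 were made from parts of the same block and all had 0 reads in every library. The one from 229173 to 231034 starts at the same exon 7 acceptor and covers 50.8% of the footprinted span. The one from 230538 to 231034 shares that acceptor too and covers 13.6%, while the one from 227372 to 228281 shares the donor at the other end and covers 24.8%. Annotated splice sites were thus shared between rings with and without reads, and the read-bearing ring was the longest of these 4.

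The remaining kis circRNAs, from 235140 to 235377 and from 236061 to 236311, spanned 238 and 251 bp and had 0 reads. Their spans matched no run of whole exons. Measured from the exon 7 end shared by the other circRNAs, both lie inside exon 3, a coding exon of 7907 bases, away from both of its ends, in the 5 transcripts.

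The stw circRNA is a single exon. It lies on chromosome 2R from 1311255 to 1311744 (dm3, plus strand) and had 0 reads in head 1, 0 in head 2, 3 in head 3 and 3 in head 4. Its 6 reads (2.20 to 13.1) were thus split evenly between heads 3 and 4 and made up 2.61% of all reads (0.963% to 5.59%). The 490 bases are exon 2 in all 5 annotated stw transcripts. In stw-RA the exon encodes residues 44 to 207 of 784, which is 20.8% of the protein, close to its amino end.

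The 2 other stw circRNAs both begin at the start of exon 4 and had 0 reads in all 4 libraries. The shorter, from 1327075 to 1328575, matched exons 4 to 6 of stw-RA and stw-RF and holds 594 coding bases. The longer, from 1327075 to 1334593, spans 7519 bp and matched no run of whole exons. By its distance from the shared start, measured in the reference annotation, its far end falls inside the last exon of those transcripts, exon 8. Both lie 15330 bp downstream of the footprinted exon.

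The CG34126 circRNA was seen in 1 library. It lies on chromosome 2L from 4990308 to 4991262 (dm3, plus strand) and had 0 reads in head 1, 0 in head 2, 0 in head 3 and 4 in head 4. All 4 reads (1.09 to 10.2) were thus in head 4, and of the 6 circRNAs in the table with at least 3 reads it was the only one with reads in a single library. They made up 1.74% of all reads (0.476% to 4.39%), 2.90% without head 3 and 0% without head 4. With 92 reads in head 3, the share there could be up to 3.26% (3 of 92), above the 3.08% seen in head 4, so a difference between these libraries was not detectable at this depth. The ring holds 708 bases from exons 12 to 16 in all 5 transcripts. In CG34126-RB these encode residues 1250 to 1485 of 1501, at the carboxyl end.

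The second CG34126 circRNA, from 4987907 to 4991262, uses the same donor at the end of exon 16 but a more upstream acceptor, at exon 8 or 9. It contains the whole footprinted block, spans 3356 bp, holds 1523 or 1544 bases and had 0 reads. Here the shorter ring had the reads, all of them in head 4, the reverse of the order by length among the kis rings. How abundant the rings with and without reads were is not known.

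The Cip4 circRNA lies at the threshold of the rule. It runs from 4324922 to 4325410 on chromosome 3L (dm3, minus strand) and had 0 reads in head 1, 0 in head 2, 1 in head 3 and 2 in head 4. Its 3 reads (0.619 to 8.77) came from heads 3 and 4 and made up 1.30% of all reads (0.270% to 3.76%). Its span of 489 bp matched a pair of exons with 425 bases in 6 of the 11 Cip4 transcripts. In Cip4-RC these are exons 8 and 9, which encode residues 362 to 503 of 612. The other Cip4 circRNA, from 4326984 to 4327917, had 0 reads and matched exons 5 to 7, with 802 bases that encode residues 94 to 361 in Cip4-RC. The 2 rings are neighbours that share no exon and are 1573 bp apart, the length of the intron between exons 7 and 8 of Cip4-RC.

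**Figure D1:**
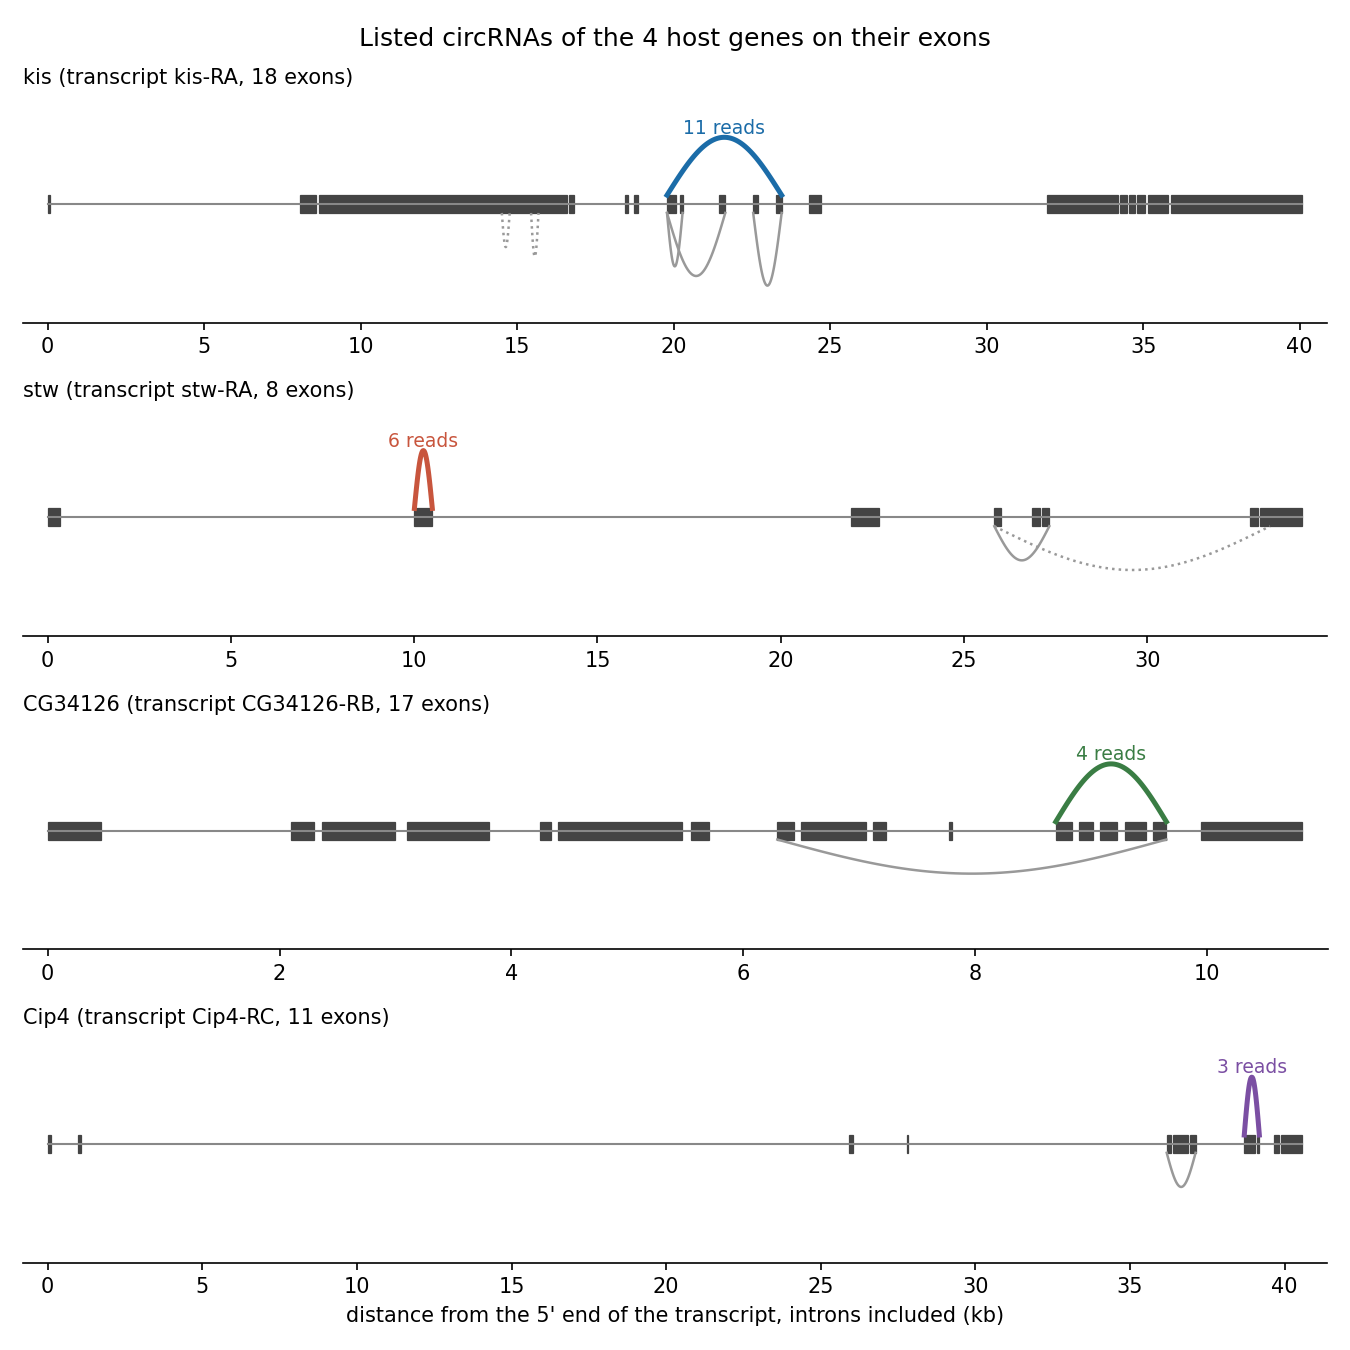
Exons (boxes) of 1 transcript of each host gene against distance from its 5′ end in kb, introns included, with arcs joining the ends of each listed circRNA. Coloured arcs above the line are the circRNAs with 11, 6, 4 and 3 reads, grey arcs below are the 9 with 0 reads (their depth has no meaning), and dotted arcs were placed by distance because they matched no run of whole exons.

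All 24 reads of the 4 circRNAs were in heads 3 and 4. Heads 1 and 2 had 0 reads for each of them, but with 4 reads in each library a circRNA with 0 could have a share of up to 75% (3 of 4). In head 3 the 4 circRNAs held 6 of 92 reads (6.52%, exact binomial interval 2.43% to 13.7%), and in head 4 they held 18 of 130 (13.8%, 8.42% to 21.0%). These intervals overlap. The kis circRNA made up 2.17% of head 3 (0.264% to 7.63%) and 6.92% of head 4 (3.21% to 12.7%). The stw circRNA made up 3.26% of head 3 (0.678% to 9.23%) and 2.31% of head 4 (0.478% to 6.60%). Cip4 was at 1.09% (0.0275% to 5.91%) and 1.54% (0.187% to 5.45%). For each gene the intervals of heads 3 and 4 overlap. The order of kis and stw turned between these libraries, but their intervals overlap in each, and in head 3 they had 2 and 3 reads.

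**Figure D2:**
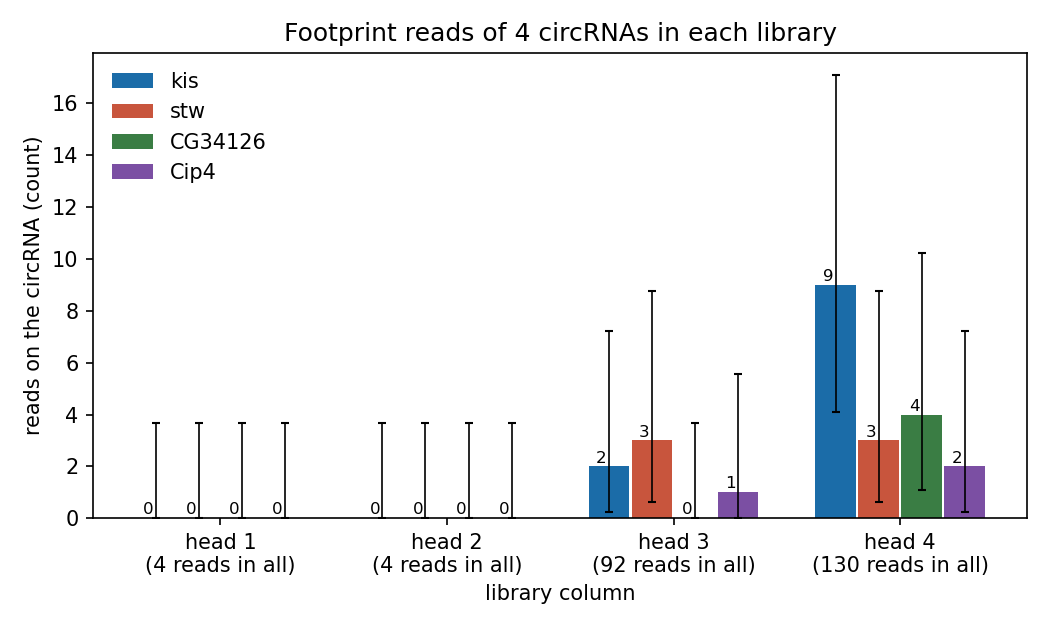
Reads on the circRNAs of kis, stw, CG34126 and Cip4 in each library column, with 95% exact Poisson intervals as whiskers and the circRNA reads of each library in brackets. All bars of heads 1 and 2 are at 0, and kis in head 4, with 9 reads, is the highest.

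The rings of mbl (muscleblind, a splicing regulator) and Sh (Shaker, a potassium channel) are the other circRNAs with at least 3 reads, and each holds a start codon. The mbl ring made up 17.4% of head 3 (10.3% to 26.7%) and 17.7% of head 4 (11.6% to 25.4%). The Sh ring made up 13% (6.93% to 21.7%) and 12.3% (7.20% to 19.2%). Of the 3 reads that heads 1 and 2 gave to these 6 circRNAs, all were on mbl.

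**Figure D3:**
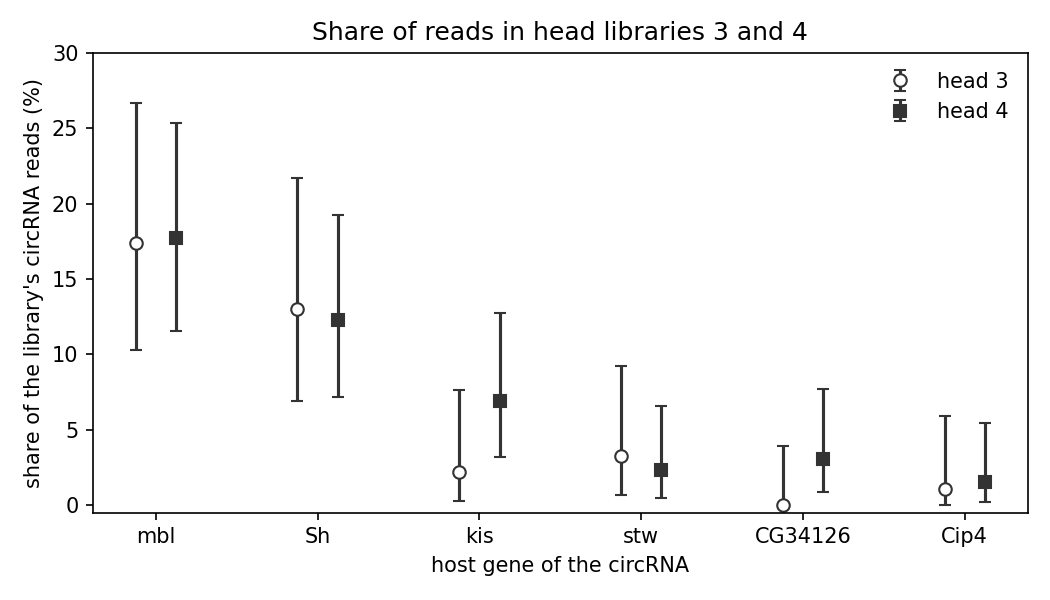
Share of the circRNA reads of heads 3 (circles) and 4 (squares) that fell on each circRNA with at least 3 reads, in percent, with 95% exact binomial intervals. The shares of mbl and Sh are near each other in heads 3 and 4, and kis is at 2.17% in head 3 and 6.92% in head 4 with overlapping intervals.

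Of 20 listed circRNAs with exactly 2 reads, 7 lay in coding exons without a start codon, a class of 1145 among the 2563 listed. These 7 stood just outside the threshold. They came from Liprin-gamma, uex, eIF4G1, Asator, Bsg, Sap47 and nolo. Of these, 4 had 1 read each in heads 3 and 4 (Liprin-gamma, eIF4G1, Asator and Bsg), uex had its 2 reads in head 3, and Sap47 and nolo had theirs in head 4. All 7 had 0 reads in heads 1 and 2.

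A property that the rule did not use is whether the reading frame closes around the ring. If the spliced length is a multiple of 3, a ribosome that goes round meets the same frame again, and otherwise the frame shifts at the back-splice. The CG34126 ring has 708 bases, which is 236 whole codons, and its back-splice falls between codons in all 5 transcripts. Since these exons are internal coding sequence, the host frame runs round that ring without a stop codon. The stw ring of 490 bases leaves a remainder of 1, and the Cip4 ring of 425 bases leaves 2. All 4 possible lengths of the kis ring also leave 2. The frame of the host therefore closes in 1 of the 4 read-bearing rings.

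The same was counted over the whole class as a description. Of the 1145 circRNAs in coding exons without a start codon, 36.7% had a length that was a multiple of 3, by the longest matching exon set. A host frame that closed between codons without a stop was counted if any matching transcript had it, which held for 163 (14.2%). In CG34126 all matching transcripts had it. Of the 51 circRNAs of the class with a read, 7 (13.7%) had such a closed frame. Among the members without reads, the stw ring of 594 bases is a multiple of 3 but splits a codon at its back-splice. Whether the shifted frames of kis, stw and Cip4 hold stop or start codons was not analysed here.

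The introns beside the rings differed between the genes. Long introns flank many circularized exons in flies, and the class had a median of 2959 bp upstream and 1788 bp downstream. The stw exon had 9668 bp upstream and 11412 bp downstream (medians over its transcripts), longer than in 80.1% and 91.3% of the class. The kis ring had 928 bp and 863 bp, longer than in 20.9% and 28.1%, although in kis-RF its downstream intron is 8486 bp. CG34126 had 897 bp and 298 bp (19.9% and 9.17%), and Cip4 had 1573 bp and 471 bp (33.5% and 15.3%). By these medians over transcripts, 1 of the 4 rings lay between introns above both class medians and 3 lay between introns below both, as did 32.9% and 32.8% of the class.

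**Figure D4:**
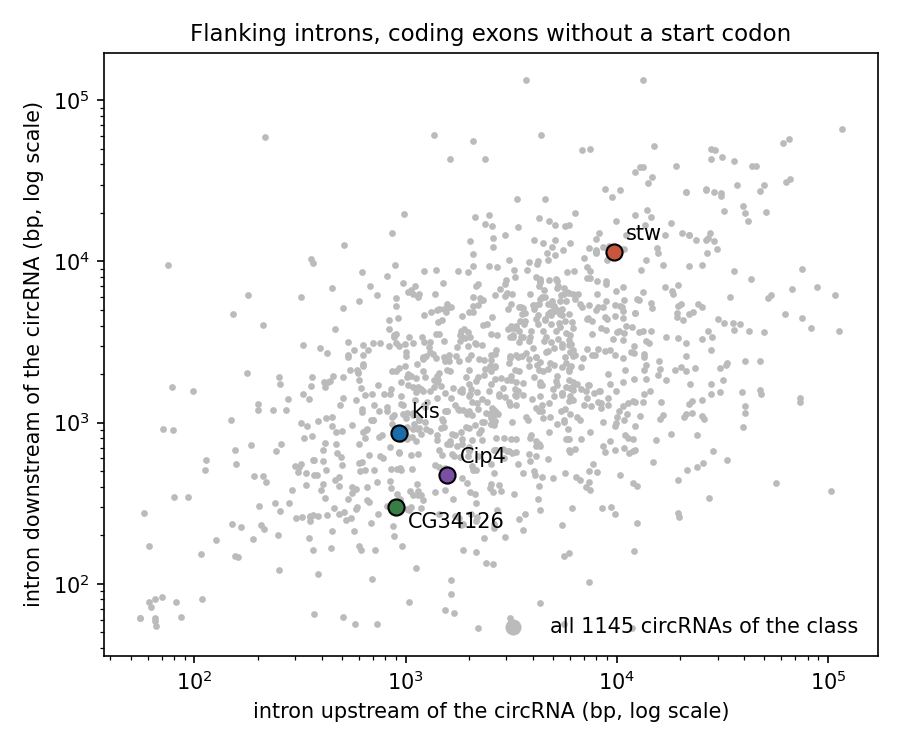
Length of the intron upstream against that downstream (bp, log axes, median over matching transcripts) for the 1145 circRNAs in coding exons without a start codon (grey) and the 4 read-bearing circRNAs (coloured). The stw point, at 9668 and 11412 bp, lies high on both axes, and kis, CG34126 and Cip4 lie below both class medians of 2959 and 1788 bp.

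Copies of a repeat in opposite directions on both sides of an exon can pair in the pre-mRNA and are known to favour back-splicing. The annotation of the reference genome places such a pair of INE-1 insertions, a short transposable element, around the stw exon. The upstream copy, 386 bp long, ends 90 bp before the exon, and the downstream copy, 528 bp long and on the opposite strand, begins 82 bp after it. The read-less ring of stw exons 4 to 6 also has an opposite pair of INE-1 copies, 353 bp upstream and 602 bp downstream. The introns beside the read-bearing rings of kis, CG34126 and Cip4 held no such pair. In the class, 64 of 1145 circRNAs (5.59%) had a pair of 1 family in opposite directions in the flanking introns. Within the class, stw exon 2 was the only one with both copies within 100 bp, a limit set after the stw distances were seen. Among circRNAs that hold a start codon, 5.10% had such a pair, and 1 also had both copies within 100 bp.

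By size on the genome, the 4 read-bearing rings ran from 489 to 3663 bp. The class had quartiles of 688 and 2918 bp around a median of 1272 bp. The kis span of 3663 bp was longer than 79.1% of the class, CG34126 with 955 bp than 39.4%, stw with 490 bp than 14.9% and Cip4 with 489 bp than 14.8%. Rings of 1 exon in all matching transcripts, like that of stw, made up 9.52% of the class.

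Lists of genes related to 3 of the hosts were counted in the same way. Of 15 other chromatin remodelling and trithorax group genes, 2 had any, Ino80 with 2 and osa with 1, and these 3 had 0 reads. Of 13 laccase and cuticle tanning genes, only t (tan, an enzyme of pigment synthesis) was listed besides stw, with 1 circRNA and 0 reads, and 1 gene name of this list was not found. Of 18 F-BAR and actin nucleation genes, Cdc42, DAAM, FER, Synd and dia were listed besides Cip4, with 1 circRNA each and 0 reads. Besides stw and Cip4 themselves, no gene of these lists had a circRNA with a read. With 3, 4 and 7 circRNAs in the lists and 4.76% of all circRNAs having a read, nothing is read from this.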

How the data were processed

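The submitters' processing notes name the read trimmer cutadapt (1.9.1) and, as genome build, dm3. No source used here names the aligner, the circRNA caller or a read minimum. Per the file headers, ribosomal RNA reads were removed, and the headers of heads 3 and 4, unlike those of heads 1 and 2, name unique reads and run 4. The deposited values are whole-number counts per circRNA, not normalized. The 4 library columns summed to the authors' count over all samples in all 2563 rows. The columns were taken as the 4 fly head libraries with no detergent assigned, and p-values were not computed.

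Spans were compared, with a tolerance of 0 bases, with runs of whole exons of the host gene in Ensembl release 115 (BDGP6, a later build; no coordinate was converted), and 1954 spans matched, 1922 of them at 1 place. The first deposited coordinate counts from 0 and was raised by 1. For the placed circRNAs of kis, CG34126 and Cip4 the matched exons had the very coordinates that the table gives, which also placed the kis circRNA of 497 bp that matched at 2 places by length. Host genes are the table's symbols; for the 13 circRNAs the accession named the same genes. Intervals are 95% exact Poisson and exact binomial (Clopper-Pearson). Exon matching was tested on simulated data, namely exon blocks drawn from the same annotation and random spans. Finding the drawn blocks checks the code only, not the placement of the listed circRNAs. Members, gene lists and features were chosen with earlier results of these data known. Every circRNA of the 4 genes, those with 2 reads in the class, mbl and Sh were named. No genome sequence was used here. Python 3.11.15, pandas 2.3.3, numpy 2.4.6, scipy 1.17.1 and matplotlib 3.10.9 were used.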

Additional observations from a re-analysis of the deposited data

Results flagged for a closer look

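Among 10 sets of 4 library values checked for a value far from the others, the CG34126 circRNA stood out, with 4 reads in head 4 and 0 in each other library. As a share this was 3.08% of the reads of head 4, again with 0 elsewhere, and both flags rest on the same 4 reads. Such a flag can arise by chance, at a rate not worked out for counts this low, and the libraries differ in total from 4 to 130 reads.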

How the results depend on the processing

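Leaving out each library in turn gave 6 to 24 reads on the circRNAs of the 4 genes (24 in all), the lowest without head 4, a share of 6% to 13% (10.4% in all) and 3 or 4 circRNAs with a read. The CG34126 circRNA was at 0% to 2.90%, with 0 without head 4, because all of its reads are there, and the highest without head 3. The kis circRNA was at 2% to 6.52%, lowest without head 4. With each library weighted equally, the shares were 2.27% for kis, 1.39% for stw, 0.769% for CG34126 and 0.656% for Cip4, all more than 1.5 times lower than over the summed reads, because heads 1 and 2 with 4 reads each then count as much as the others. Of 45 alternatives for 9 results, 43 moved the value by less than the spread between libraries or, for counts, by less than 1.5 times. This says little about stability. Leaving out head 1 or 2 could change little, as both hold 0 reads of these circRNAs. The rule itself required at least 3 reads and no start codon for 1 circRNA of each gene. The spread includes these near-empty libraries, so kis at 2% without head 4, against 4.78% in all, counted as unmoved. Host genes from the accession, at least 2 reads and whole-exon spans left the results they bear on at their values. So did other definitions of the start codon or exon set. Several of these outcomes were fixed in advance. A minimum of 2 reads and whole-exon spans could not remove circRNAs that the rule had chosen by reads and matching exons. Nor could a start codon required in every matching transcript raise a count of 0. Of the 9 circRNAs matched at 1 place by length, 0 held a start codon and 2 had a length that is a multiple of 3. No paired analysis was possible because the columns carry no replicate number of a detergent group. Depth limits all of this: heads 1 and 2 allow no statement on single circRNAs.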

Other observations

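The 7 circRNAs with exactly 2 reads in coding exons without a start codon (Liprin-gamma, uex, eIF4G1, Asator, Bsg, Sap47 and nolo) all had a spliced length that leaves a remainder of 1 when divided by 3. In the class of 1145 this remainder was found in 32.7%, and in 18 of the 51 with a read (35.3%), a count that includes these 7. Of the 4 host genes described above, stw has it and kis, CG34126 and Cip4 do not. This was noticed after the values were seen and was not tested.

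Among all listed circRNAs, 17 of the 26 circRNAs with at least 2 reads had a read in both head 3 and head 4, 4 had reads in head 3 alone and 5 in head 4 alone. The rings of kis, stw and Cip4 are among the 17 and that of CG34126 is among the 5.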
